A study of Homo sapiens with 7 samples.

Results

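Keratins and the other intermediate filament genes KRT7, KRT8, KRT10, KRT17, KRT18, KRT19, KRT80, KRT81, VIM and NES were followed over 7 Affymetrix expression arrays of Panc1 cells, an established human pancreatic cancer cell line. They were taken as the probe sets annotated to exactly 1 of these 10 symbols. That gave 16 probe sets of 8 genes, among 54613 probe sets and 19775 named genes in all. KRT17 and KRT81 had no such probe set in the annotation used and were not analysed here. KRT8, KRT18 and KRT80 each had 1 probe set, and the other 5 genes had several. Where a gene had several, the one with the highest average signal stands for it, and the rest are given with their own values.

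All arrays were of stable Panc1 transfectants from which single-cell clones had been taken. The S100P-labelled arm carried the vector pcDNA3.1/S100P-V5-His, which expresses the small calcium-binding protein S100P with a tag, and held 4 arrays, 2 each of clone 1 and clone 5. The vector arm carried pcDNA3.1/V5-His without S100P and held 3 arrays, 2 of clone V3 and 1 of clone V1. The letters a and b tell the arrays of 1 clone apart, as in their labels. Each arm therefore rests on 2 clones, and a difference between arms cannot be told apart from one between the clones that happened to be picked. The study looked for genes regulated by S100P. The comparison of arms shows which filament genes differed between these labelled clones, and cannot by itself tell whether S100P regulated them. Whether a and b were separate cultures is not in the labels. In contrasts of single clones, p-values therefore measure the spread between arrays of 1 clone only, which may be technical. Between the arms, spread between the 2 clones of an arm enters too.

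Intermediate filaments are the rope-like part of the cytoskeleton. Keratins form them in epithelia as obligate pairs of a type I keratin (here KRT10, KRT18 and KRT19) and a type II keratin (KRT7, KRT8 and KRT80), and the chains are anchored at desmosomes. KRT8 with KRT18 is the pair of simple epithelia, and KRT7 and KRT19 are markers of pancreatic ducts and of the tumours that resemble them. Vimentin (VIM) and nestin (NES) are type III and type VI filament proteins of mesenchymal and progenitor cells, and carcinoma lines such as Panc1 often carry vimentin beside keratins.

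The promoter table of RefSeq (GRCh38.p14) matched KRT8, NES, KRT10 and VIM, 4 of the 10 genes. Their 250 bases before the start site are shown because KRT8 and NES differed between clones 5 and 1 in the results that follow, whereas KRT10 and VIM were not called there. Capitals mark matches, on either strand, to any of 4 short motifs. The GC box was searched as GGGCGG. For the CCAAT box the letters in its name were used. The TATA box was searched as TATAAA and the AP-1 site as TGAGTCA, and no matches overlapped one another in these windows. KRT8 has annotated starts other than the start of the table, and which of them Panc1 cells use was not examined. KRT8 lies on the minus strand (chr12:52926470-52926719), NES on the minus strand (chr1:156677408-156677657), KRT10 on the minus strand (chr17:40822615-40822864) and VIM on the plus strand (chr10:17227991-17228240). All are written 5′ to 3′ on the gene's strand.
KRT8: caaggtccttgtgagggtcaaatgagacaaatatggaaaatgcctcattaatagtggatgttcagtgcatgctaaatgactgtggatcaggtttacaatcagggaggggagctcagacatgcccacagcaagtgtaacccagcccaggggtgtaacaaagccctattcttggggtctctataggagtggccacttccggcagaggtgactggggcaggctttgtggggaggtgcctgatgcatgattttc
NES: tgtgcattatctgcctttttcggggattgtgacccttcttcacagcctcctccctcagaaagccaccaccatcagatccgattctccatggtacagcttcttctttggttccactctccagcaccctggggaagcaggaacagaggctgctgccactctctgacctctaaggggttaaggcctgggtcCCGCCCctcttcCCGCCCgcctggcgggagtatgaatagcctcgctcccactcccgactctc
KRT10: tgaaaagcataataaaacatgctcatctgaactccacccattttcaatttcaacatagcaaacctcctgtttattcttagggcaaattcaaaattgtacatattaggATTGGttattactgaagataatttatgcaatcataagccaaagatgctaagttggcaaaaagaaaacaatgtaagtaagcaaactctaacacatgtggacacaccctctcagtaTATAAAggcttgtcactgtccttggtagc
VIM: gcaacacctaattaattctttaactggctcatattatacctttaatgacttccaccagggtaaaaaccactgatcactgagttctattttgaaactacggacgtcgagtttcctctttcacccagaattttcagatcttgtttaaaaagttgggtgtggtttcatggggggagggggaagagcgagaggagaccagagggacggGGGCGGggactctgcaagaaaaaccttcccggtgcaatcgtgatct

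The NES window held 2 GC boxes, whose first bases lay 62 and 50 bases before the start, and the VIM window held 1, at 46 bases. KRT10 had a CCAAT box at 143 bases and a TATA box at 29 bases. None of the 4 motifs was found in the KRT8 window, which says only that these letters are not in these 250 bases. Of 35116 promoters of the same length, 42.6% held the GC box, 32% the CCAAT box, 10.7% the TATA box and 4.2% the AP-1 site. G and C made up 50.4% of the KRT8 window, 58% of NES, 34.8% of KRT10 and 46% of VIM, against a median of 58% over all promoters. The GC box was thus present both in NES, called between clones 5 and 1, and in VIM, not called there.

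The arrays were alike in overall signal. Array medians lay between 4.51 and 4.59 on the log2 scale, and 32.1% to 33.3% of probe sets had a value of at least 6. V1 is labelled with a prefix that the 6 arrays of the other clones lack, and whether it was handled apart cannot be told from the clone. The probe set of S100P itself was not called between the arms (log2 difference 0.27, SE 0.32, limma adjusted p = 0.846), and whether it reads the transgene is unknown here. It was lower in V1 than in V3 (log2 difference -1.18, limma adjusted p = 0.0104), and V3, at 5.65 and 6.01, lay above clone 5, at 5.36 and 5.45. Every direction that follows is therefore that of the arms as labelled. Of 9 ductal epithelial markers measured, 8 had a mean of at least 6 (KRT7, KRT8, KRT18, KRT19, EPCAM, MUC1, CDH1 and SOX9), CFTR being the exception. Markers of acinar cells, leukocytes and endothelium all had means under 6. Of the squamous markers only KRT10 reached 6, of the endocrine ones only SYP and of the fibroblast ones only COL1A1. The summed log2 level of the ductal list ran from 79.4 to 82.4 in the S100P-labelled arm and from 78.1 to 83.1 in the vector arm. That sum, of which KRT7, KRT8, KRT18 and KRT19 are part, holds genes that went opposite ways. CDH1 (log2 difference 2.23, limma adjusted p = 0.133) and SOX9 (0.91, limma adjusted p = 0.0549) lay higher on every S100P-labelled array than on any vector array. KRT7 lay lower, and none of them passed the threshold between the arms. The CDH1 value of V1, 3.83, lay below the median of its array, and V1 differed from V3 by -2.43. The sum of the fibroblast list ran from 26.0 to 27.2 and from 25.6 to 26.2.

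KRT8, KRT18, KRT19 and NES differed between clones 5 and 1 and were not called between the arms. They were lowest on both arrays of clone 1 and highest on V3, with clone 5 and V1 between them. KRT80 differed from this pattern, with its lowest values in clone 5 and its highest in both vector clones. VIM and KRT10 were not called in any contrast at their brightest probe sets. On bulk RNA, fewer cells that express a gene and less RNA of it per cell cannot be told apart. KRT7, KRT8, KRT18, KRT19 and NES, 5 of the 8 genes, had their lowest clone mean in clone 1 and their highest in V3. Of all 19775 genes, 7.61% had both, and 30.8% had their lowest clone mean in clone 1. This pattern was read from these same values and was not tested.

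**Figure D1:**
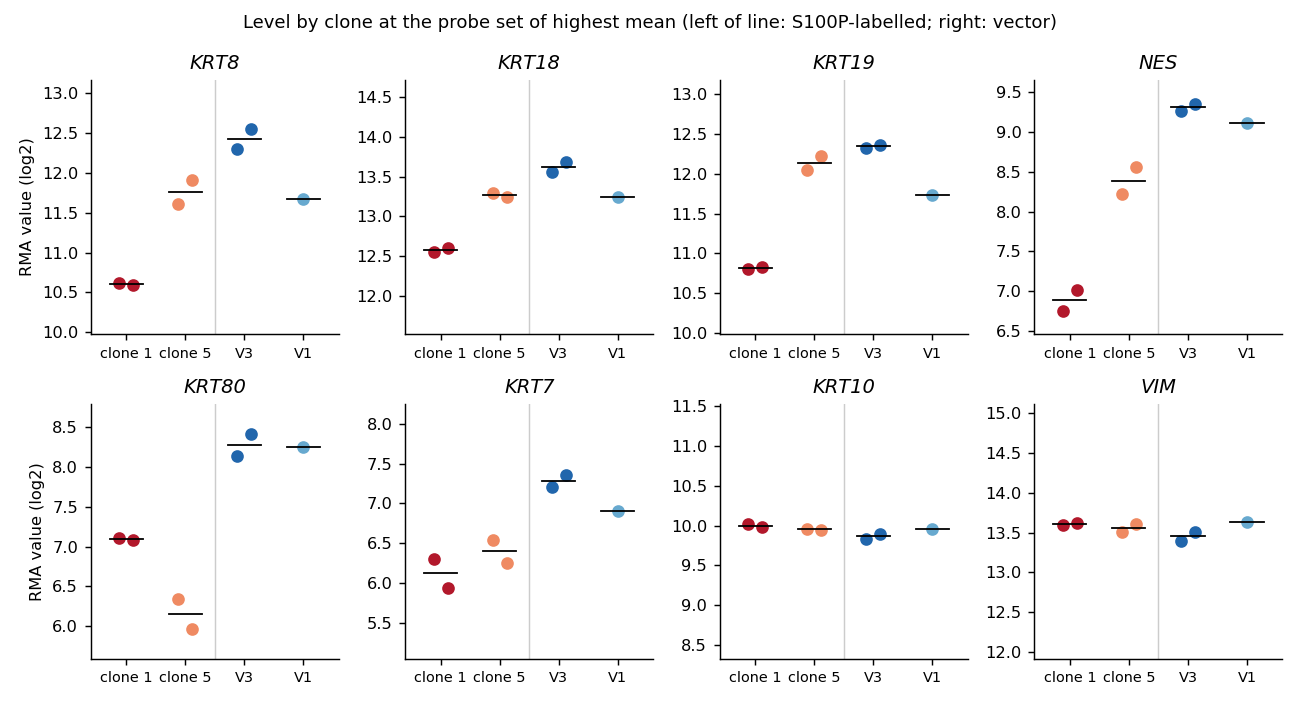
RMA values (log2, vertical axis, the same span in every panel) of the 8 genes at the probe set of highest mean, by clone. Points are arrays, horizontal lines clone means, and the grey line separates the S100P-labelled from the vector clones. KRT8, KRT18, KRT19 and NES are lowest in clone 1, KRT80 is lowest in clone 5, and KRT10 and VIM are nearly level.

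Counted over probe sets, 2 of the 16 passed between the arms, KRT80 lower and the dimmer VIM probe set higher, where 1.12% of all probe sets passed, 0.776% higher and 0.342% lower. All 4 S100P-labelled arrays lay beyond all 3 vector arrays at 4 of the 16 (KRT7, KRT80 and NES lower, VIM higher), against 11.4% of all probe sets, 6.74% higher and 4.63% lower. Between clones 5 and 1, 5 of the 16 passed, namely KRT8, KRT18, KRT19 and NES higher and KRT80 lower in clone 5. There 2.19% of all probe sets passed, 0.584% higher and 1.6% lower. Between V1 and V3, KRT8 and KRT19 passed, both lower in V1, where 5.85% of all probe sets passed, 2.57% higher and 3.28% lower. The median log2 difference of the 8 genes was -0.75 between the arms, 0.48 for clone 5 minus clone 1 and -0.28 for V1 minus V3. The medians of all probe sets were 0.00, 0.03 and 0.02. With 1 array of clone 1, clone 5 or V3 left out, none of all 54613 probe sets passed between clones 5 and 1, so the loss of the 5 calls there says nothing about these genes. Their differences kept their size, KRT19 at 1.23 to 1.41 and NES at 1.33 to 1.67, and 5 to 6 of the 16 had an unadjusted p under 0.05. Between V1 and V3 none of the 54613 passed when the array left out was of V3 or clone 1. When it was of clone 5, 909 passed, and KRT8 and KRT19 were not among them.

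**Figure D2:**
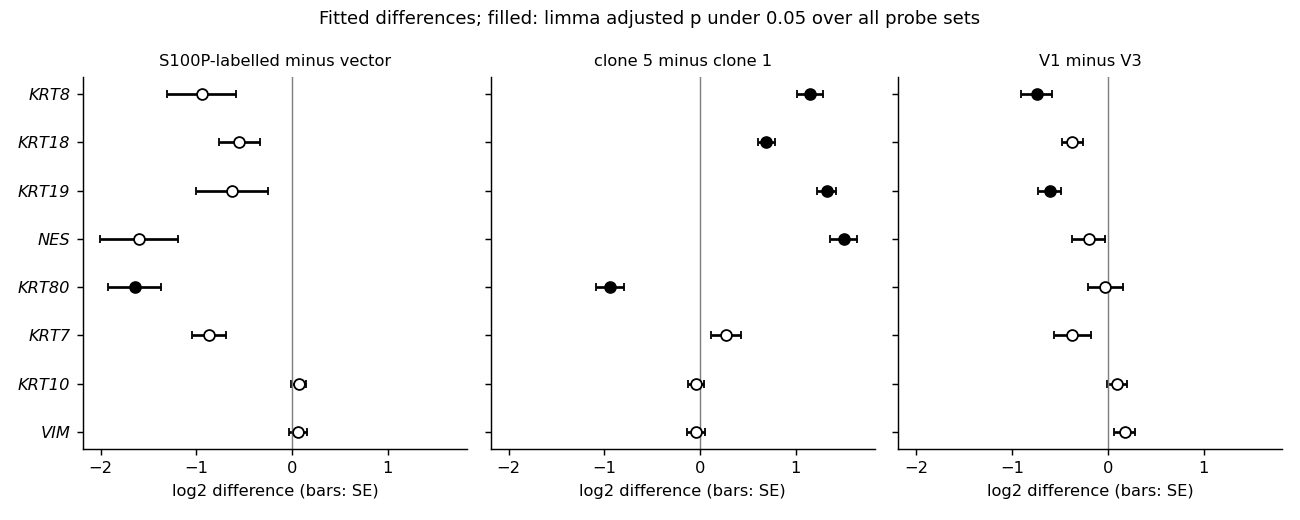
Fitted log2 differences (horizontal axis, bars are the SE) of the 8 genes at the probe set of highest mean, for the arms, clone 5 minus clone 1 and V1 minus V3. Filled points passed a limma adjusted p of 0.05 over all probe sets. KRT80 passed for the arms, 5 genes for clone 5 minus clone 1, and KRT8 and KRT19 for V1 minus V3.

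KRT8, the type II keratin of simple epithelia, read 12.30 and 12.55 in V3, 11.68 in V1, 11.61 and 11.92 in clone 5 and 10.63 and 10.59 in clone 1. Both arrays of clone 1 lay below the other 5, whereas the V1 array fell between the clone 5 arrays, so the arms overlapped. KRT8 was 2.22-fold higher in clone 5 than in clone 1, a log2 difference of 1.15 (SE 0.14, limma adjusted p = 0.0110) and 1.67-fold lower in V1 than in V3, a log2 difference of -0.74 (SE 0.17, limma adjusted p = 0.0482). Between the arms the log2 difference was -0.95 (SE 0.36, limma adjusted p = 0.346), which did not pass.

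KRT18, the type I partner of KRT8, read 13.56 and 13.68 in V3, 13.25 in V1, 13.29 and 13.25 in clone 5 and 12.55 and 12.60 in clone 1. Its order over the clones was that of KRT8, with clone 1 apart from all other arrays and V1 level with clone 5. The log2 difference of clone 5 from clone 1 was 0.69 (SE 0.09, limma adjusted p = 0.0157), a 1.62-fold rise. V1 differed from V3 by -0.37 (SE 0.11, limma adjusted p = 0.114) and the arms by -0.55 (SE 0.21, limma adjusted p = 0.354), and neither passed. KRT8 and KRT18 are neighbours on chromosome 12. Each has 1 probe set, designed such that near-identical transcripts may bind it too, and RefSeq lists 52 pseudogenes of KRT8 and 68 of KRT18, so their values are uncertain to that extent.

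The partners differed in the size of their change, as values. Within an array the log2 value of KRT8 minus that of KRT18 was -1.26 and -1.13 in V3, -1.57 in V1, -1.68 and -1.33 in clone 5 and -1.93 and -2.003 in clone 1. Clone 1 had the lowest and V3 the highest of these differences, a span of 0.87. This ratio was chosen after its values were seen and was not tested. It compares changes only, since the 2 probe sets have no common scale of level. RMA can compress differences of very bright probe sets, and KRT18 read 12.55 to 13.68. Whether that made its change the smaller was not tested.

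KRT19, a type I keratin of ducts that has no tail domain, read 12.33 and 12.36 in V3, 11.74 in V1, 12.04 and 12.23 in clone 5 and 10.80 and 10.83 in clone 1. The arrays of the 4 clones did not overlap one another, and V1 lay below clone 5, so the arms were interleaved. KRT19 was 2.50-fold higher in clone 5 than in clone 1, a log2 difference of 1.32 (SE 0.10, limma adjusted p = 0.00215). It was 1.53-fold lower in V1 than in V3, a log2 difference of -0.61 (SE 0.12, limma adjusted p = 0.0322). The arms differed by -0.63 (SE 0.38, limma adjusted p = 0.600), which did not pass. The probe set is of the type meant to read 1 gene, though RefSeq lists 5 pseudogenes of KRT19. The other KRT19 probe set, at 4.03 to 4.58, lay below the array median on 6 of the 7 arrays and was not called in any of the 3 contrasts.

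NES, the large filament protein of neural and other progenitors, had the widest range of clone means of the 8 genes. It read 9.27 and 9.36 in V3, 9.11 in V1, 8.22 and 8.55 in clone 5 and 6.76 and 7.02 in clone 1. All 4 S100P-labelled arrays lay below all 3 vector arrays, and clone 1 lay below clone 5. NES was 2.83-fold higher in clone 5 than in clone 1, a log2 difference of 1.50 (SE 0.14, limma adjusted p = 0.00544). The S100P-labelled mean was 7.64 ± 0.88 (SD, n = 4) and the vector mean 9.24 ± 0.12 (SD, n = 3). The fitted difference of -1.60 (SE 0.41, limma adjusted p = 0.137) did not pass. The means of clones 1 and 5 were 6.89 and 8.39. Leaving out clone 5, NES differed from the vector clones by -2.36 (limma adjusted p = 0.00463), and leaving out clone 1 by -0.88 (limma adjusted p = 0.0321). Each of those fits holds 1 S100P-labelled clone, so spread between the clones of that arm cannot enter. The other NES probe set, at 3.79 to 4.17, lay below every array's median and was not called in any of the 3 contrasts.

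Of the measures of RNA quality, that of ACTB set clone 1 apart. Per array, the log2 difference of the 3' from the 5' control probe set of ACTB was 0.28 and 0.32 in V3, 0.18 in V1, 0.29 and 0.27 in clone 5 and 0.53 and 0.44 in clone 1. The GAPDH difference was 0.09 and 0.14 in V3, 0.01 in V1, 0.07 and 0.06 in clone 5 and 0.08 and 0.08 in clone 1, and did not set clone 1 apart. The part of RNA quality in the lower KRT8, KRT18, KRT19 and NES values of clone 1 was not tested.

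KRT80, a type II keratin found at the cell margins of many epithelia, was the only gene of the 8 called between the arms at its probe set of highest mean. It read 8.14 and 8.41 in V3, 8.25 in V1, 6.34 and 5.97 in clone 5 and 7.11 and 7.08 in clone 1. Every S100P-labelled array lay below every vector array, and the V1 array lay between the V3 arrays. The S100P-labelled mean was 6.62 ± 0.57 (SD, n = 4) and the vector mean 8.27 ± 0.14 (SD, n = 3). KRT80 was 3.12-fold lower in the S100P-labelled arm (log2 difference -1.64, SE 0.28, limma adjusted p = 0.0351). Clone 5 was 1.92-fold lower than clone 1 (log2 difference -0.94, SE 0.15, limma adjusted p = 0.0268), the direction opposite to that of KRT8, KRT18, KRT19 and NES. V1 and V3 differed by -0.02 (SE 0.18, limma adjusted p = 0.987). The call between the arms was lost without clone 1 array b (log2 difference -1.79, limma adjusted p = 0.0553), clone 5 array a (-1.60, 0.104), clone 5 array b (-1.50, 0.0683), V3 array a (-1.71, 0.117) or V3 array b (-1.57, 0.119), without clone V3 (limma adjusted p = 0.160) and with clone means (limma adjusted p = 0.428), though KRT80 stayed lower in each.

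KRT7, the type II keratin used as a marker of ducts, is the neighbour of KRT80 on chromosome 12. Its brightest probe set read 7.20 and 7.35 in V3, 6.91 in V1, 6.54 and 6.25 in clone 5 and 6.31 and 5.94 in clone 1. As in KRT80, the 4 S100P-labelled arrays lay below the 3 vector arrays, but clones 1 and 5 overlapped. The log2 difference between the arms was -0.87 (SE 0.18, limma adjusted p = 0.0667), just outside the threshold, and it passed without V1 (-1.02, limma adjusted p = 0.0216). The difference of clone 5 from clone 1 was 0.27 (SE 0.15, limma adjusted p = 0.474) and that of V1 from V3 -0.37 (SE 0.19, limma adjusted p = 0.347). The other KRT7 probe sets did not share this split. The second brightest read 5.995 to 6.53 over the 7 arrays with a log2 difference of -0.19 between the arms, and the dimmer ones read 2.36 to 3.11, with -0.05 and 0.00.

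KRT10, the type I keratin of differentiating epidermis, was level at all 3 of its probe sets. The brightest read 9.84 and 9.90 in V3, 9.96 in V1, 9.95 and 9.95 in clone 5 and 10.02 and 9.98 in clone 1. The arms overlapped, and the log2 difference was 0.07 (SE 0.08, limma adjusted p = 0.844). Over the 3 probe sets the differences between arms were 0.01 to 0.10, and none was called in any contrast. By their design, the brightest and the next brightest may bind near-identical transcripts too.

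VIM, the type III filament protein of mesenchymal cells, had 2 probe sets that disagreed. The brighter read 13.40 and 13.51 in V3, 13.63 in V1, 13.51 and 13.61 in clone 5 and 13.60 and 13.62 in clone 1. Its arms overlapped, with a log2 difference of 0.06 (SE 0.09, limma adjusted p = 0.886). RMA can compress differences at so bright a probe set, and whether it did so here was not tested. The dimmer read 6.22 and 6.41 in V3, 5.95 in V1, 7.04 and 7.01 in clone 5 and 7.17 and 7.12 in clone 1. There every S100P-labelled array lay above every vector array, and the level was 1.88-fold higher (log2 difference 0.91, SE 0.13, limma adjusted p = 0.0175). Near-identical transcripts may bind this probe set too, by its design. Its call was lost without clone 1 array b (limma adjusted p = 0.0515), clone 5 array a (0.0511), clone 5 array b (0.0711) or V3 array a (0.0857), without clone 1 (0.0600) and with clone means (0.361). At neither probe set did clone 5 differ from clone 1 past the threshold, with -0.05 and -0.12.

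**Figure D3:**
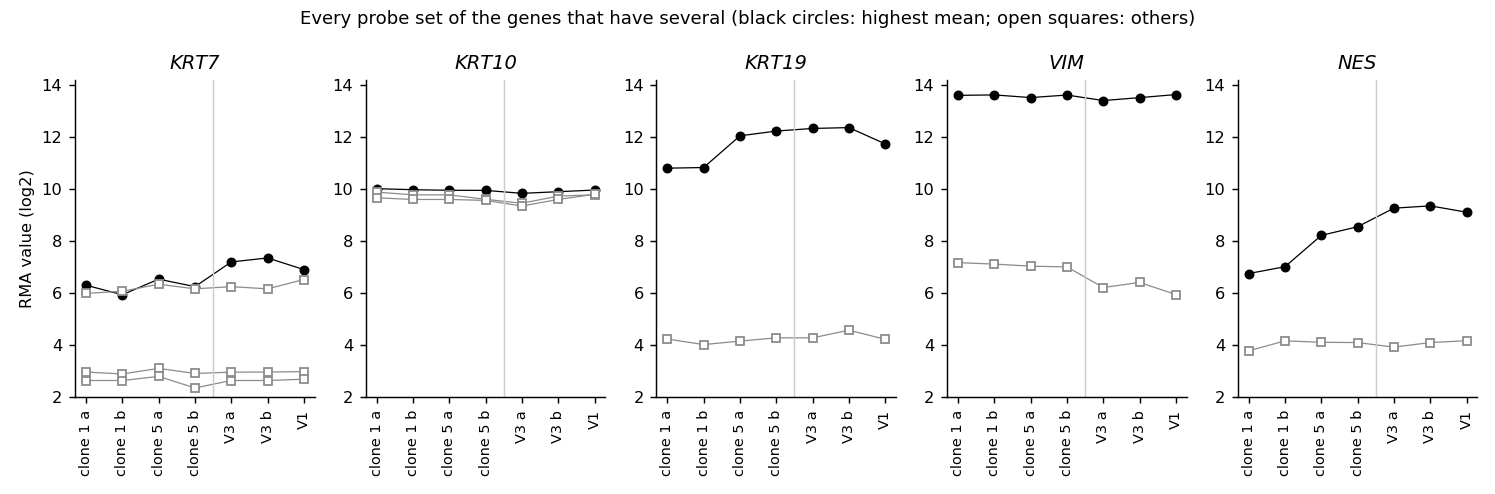
RMA values (log2, vertical axis) on the 7 arrays (horizontal axis) for every probe set of the 5 genes with several. Black circles mark the probe set of highest mean and open squares the others. KRT10 is nearly level at all of them, KRT19, KRT7 and NES vary most at the brightest, and VIM passed between the arms at the dimmer one only.

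Other keratins were dim. Of 38 other keratin genes measured, 37 stayed under 6 on every array, with means of 2.71 to 5.08, and none passed in any of the 3 contrasts. KRT15, a type I keratin of basal epithelium and the neighbour of KRT19, was the exception in level. It read 7.13 and 7.57 in V3, 6.82 in V1, 7.29 and 7.24 in clone 5 and 6.56 and 6.76 in clone 1, and clone 5 minus clone 1 was 0.60 (SE 0.15, limma adjusted p = 0.110). Between the arms the largest differences, as values, were -0.58 for KRT73 and -0.20 for KRT75, both keratins of hair follicles. Among 13 further filament genes none passed between the arms. LMNB1, a lamin of the nuclear envelope, was 1.66-fold higher in clone 5 than in clone 1 (limma adjusted p = 0.0211). LMNA, which encodes lamins A and C, was 1.77-fold higher in V1 than in V3 (limma adjusted p = 0.0169) and passed there at 3 of its 6 probe sets. Between the arms LMNB1 and LMNB2, another lamin gene, differed most, with -0.47 and -0.28 as values.

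Linkers tie filaments to desmosomes and to each other. Of 16 linker genes, 2 passed as higher in the S100P-labelled arm and none as lower, where 0.776% and 0.342% of all probe sets did. They were the desmosomal plakin DSP (1.87-fold, limma adjusted p = 0.0336) and the desmosomal cadherin DSC2 (5.13-fold, limma adjusted p = 0.00211). DSC2 passed at 3 of its 4 probe sets and in 16 of 17 alternatives. DSP lost its call when any 1 array of clone 1, clone 5 or V3 was left out, with a limma adjusted p of 0.0566 to 0.119. In clone 5, where KRT8, KRT18 and KRT19 were higher than in clone 1, the desmosomal cadherin DSG2 was 2.01-fold lower (limma adjusted p = 0.00406), the plakin EPPK1 1.55-fold lower and DSC2 1.47-fold lower. DSG2 passed there at both of its probe sets, EPPK1 at 1 of 5 and DSC2 at 1 of 4. Of all probe sets, 1.6% passed lower in clone 5. DSG2 still lay higher on every S100P-labelled array than on any vector array. Its log2 difference between the arms was 1.20 (limma adjusted p = 0.0978), which did not pass. V1 was lower than V3 in EPPK1 (limma adjusted p = 0.00540), where its value of 4.09 lay below the median of its array and no fold is given, in JUP, the plaque protein plakoglobin (2.04-fold), and in the plakin PPL (1.73-fold). Of all probe sets, 3.28% passed lower in V1 than in V3. Medians of the list were 0.19, -0.03 and -0.20 in the 3 contrasts.

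Of 11 chaperones and binding partners measured, none passed between the arms or between clones 5 and 1. SFN, a 14-3-3 protein that binds keratins, was 1.47-fold lower in V1 than in V3 (limma adjusted p = 0.0404), and the kinase gene PRKCE was 1.46-fold lower (limma adjusted p = 0.0305). SFN passed at 1 of its 3 probe sets and PRKCE at 1 of 4. The other PRKCE probe sets, all dimmer, went the other way (0.39, 0.46 and 0.42) and were not called. Of all probe sets, 3.28% passed lower in V1 than in V3. As values, HSPB1, a small heat shock protein that binds filaments, differed by 0.55 between the arms (SE 0.12, limma adjusted p = 0.0746), and DNAJB6, a co-chaperone of KRT18, by 0.31.

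Of 14 transcription factors known to act on keratin, vimentin or nestin genes, none passed between the arms, where ELF3 (-0.69) and KLF5 (0.64) differed most. In clone 5, 4 were lower than in clone 1, namely KLF4 (2.65-fold, limma adjusted p = 0.00191), KLF5 (limma adjusted p = 0.0234), FOSL1 (1.81-fold, limma adjusted p = 0.0256) and CEBPB (1.80-fold, limma adjusted p = 0.0150). KLF4 and KLF5 are Krüppel-like factors of epithelia, FOSL1 is an AP-1 subunit and CEBPB a leucine zipper factor. KLF5 read 5.37 and 6.03 in clone 1 but 4.43 and 4.16 in clone 5, below the medians of the clone 5 arrays, so no fold is given. In V1, the epithelial factor ELF3 was 3.31-fold lower than in V3 (limma adjusted p = 0.00113) and CEBPB 1.97-fold lower. ELF3 passed there at all 3 of its probe sets. Of all probe sets, 3.28% passed lower in V1 than in V3, and 1.6% lower in clone 5 than in clone 1. KLF4 passed between clones 5 and 1 at 1 of 2, and the other KLF5 probe set, called there too, lay below the median of every array. GRHL2, an epithelial factor, read 3.05 to 3.25 and SNAI2, a repressor of epithelial genes, 2.60 to 2.86, both below every array's median. CDH1, the epithelial cadherin gene, had another order than these keratins. It read 6.17 and 6.36 in V3, 3.83 in V1, 7.36 and 7.37 in clone 5 and 7.79 and 7.66 in clone 1.

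**Figure D4:**
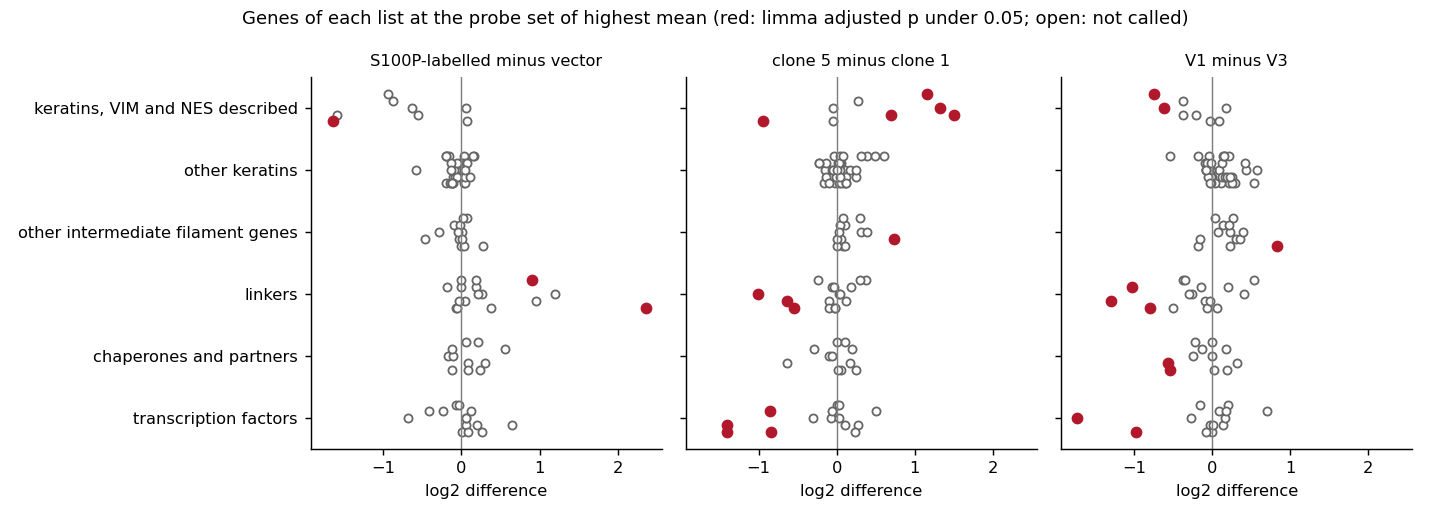
Log2 differences (horizontal axis) of single genes at the probe set of highest mean, by list (vertical axis, spread for visibility), in the 3 contrasts. Red points passed a limma adjusted p of 0.05, open points did not. None of the 38 other keratins passed in any contrast, and 4 transcription factors passed as lower for clone 5 minus clone 1.

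The genes whose levels ran most like the 3 most variable ones were found by Pearson's r over the 7 arrays among 1307 genes that varied by at least 1 between clone means. The arrays share 4 clones, so r is a description only. Most like NES were AMOTL1 (r = 0.986), GLUL (r = 0.973) and EML6 (r = 0.972). Most like KRT80 were CA13 (r = 0.996), SLFN11 (r = 0.989) and MYLK (r = 0.988). Most like KRT8 were KRT18 (r = 0.987), MMP16 (r = 0.982) and TOB1 (r = 0.981). CA13, a carbonic anhydrase gene, read 7.79 and 7.87 in V3, 7.79 in V1, 6.68 and 6.56 in clone 5 and 7.18 and 7.06 in clone 1, the order of KRT80. AMOTL1, an angiomotin family gene, read 7.53 and 7.69 in V3, 7.20 in V1, 6.12 and 6.39 in clone 5 and 4.95 and 5.16 in clone 1, the order of NES. TOB1, an antiproliferative gene, read 10.61 and 10.79 in V3, 10.11 in V1, 10.21 and 10.13 in clone 5 and 9.53 and 9.44 in clone 1, the order of KRT8.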

How the data were processed

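Total RNA of 7 Panc1 arrays was measured. Per the submitters' processing notes, the authors used RMA, a method that subtracts background, makes the arrays' distributions alike and gives 1 value per probe set. The deposited values were taken as log2, a scale inferred from their range because it is not written in the table. RMA can compress differences of very dim and very bright probe sets. The RMA version is not given in the sources used here. Without detection calls, which were not used here, a dim probe set cannot be called absent. Precision is limited by the number of arrays.

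The 62 control probe sets were left out and 54613 tested. Genes were named only from the 41091 probe sets with 1 symbol in the platform annotation (1801 had several, 11721 none), and of several probe sets the brightest on average stood for a gene. Fits were run in R 4.3.3 with limma 3.58.1 (statmod 1.5.0). The arms were fitted with a random block for the clone (duplicateCorrelation gave a correlation of 0.287). The contrasts of clone 5 with clone 1 and of V1 with V3 came from a fit of the 4 clones as fixed effects, which left 3 residual degrees of freedom. It sets single clones against each other, not conditions, and gives V1, a single array, the spread of the rest. Where a gene differs more between clones than that correlation allows, the adjusted p of the arms may be too small. P-values were two-sided, adjusted by Benjamini-Hochberg over all 54613 probe sets, with a threshold of 0.05. Fits were tested on simulated data.

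The genes and lists were chosen with earlier results of these data known. Named were all members at every probe set, list genes that passed (at most 4 a list and contrast, otherwise the 2 of largest difference between the arms), and the 3 genes of highest r with each of the 3 members of widest clone range. Alternatives changed the normalization, the centring, the filter on dim probe sets, the variance prior, the block and the arrays or clones included.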

Additional observations from a re-analysis of the deposited data

Results flagged for a closer look

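The S100P-labelled clones differed from each other, by a test of the difference itself, in KRT8 (log2 difference of clone 5 from clone 1 1.15), KRT18 (0.69), KRT19 (1.32), NES (1.50) and KRT80 (-0.94). Against the same vector arrays, the first 4 thus lay lower in clone 1 and KRT80 lay lower in clone 5. At the brighter VIM probe set clone 5 array a (13.51) stood apart from the other 3 S100P-labelled arrays (13.60 to 13.62), the gap being 0.833 of the range of the 4 arrays, just past Dixon's limit. Chance flags about 1 in 20 groups of that size, and 16 probe sets were looked at.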

How the results depend on the processing

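Between the arms, 2 of the 16 probe sets passed. The count was 0 to 3 with single arrays left out, 0 with clone means (limma, 4 with an unadjusted p under 0.05), 5 without clone 5, 1 without clone V3 and 2 to 3 under the other settings. KRT80 was past the threshold in 9 of 17 alternatives (leaving out clone V1 or its 1 array is the same fit) and lower in all of them (-2.12 to -1.17). The dimmer VIM probe set passed in 11 of 17 and was higher in all. KRT7 passed in 4 of 17. For clone 5 minus clone 1 the count of 5 was 0 to 5 with single arrays left out and 5 under the other settings, with KRT8, KRT18, KRT19, KRT80 and NES each keeping their direction in all 12 alternatives. For V1 minus V3 the count of 2 was 0 with any array of clones 1, 5 or V3 left out and 0 with the array letter as replicate block (limma, 5 with an unadjusted p under 0.05), and KRT8 and KRT19 stayed lower in all 11. Where an array of clones 1, 5 or V3 is left out, the fit of clones has 1 residual degree of freedom fewer, and for clone 5 minus clone 1 none of the 54613 probe sets then passed.

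The directions that turned belonged to genes that were not called in that contrast. VIM was -0.045 between the arms without clone V3, and -0.094 to 0.0038 for clone 5 minus clone 1 with single arrays left out. KRT80 ranged from -0.16 to 0.11 for V1 minus V3 with single arrays left out. With the letter as replicate block, on the 6 arrays that carry one, KRT7 and the dimmer VIM probe set passed between the arms and KRT80 did not (-1.65, limma adjusted p = 0.103). Deviations of the a arrays correlated at -0.08 to 0.06 between clones. Whether the letters pair the samples cannot be told from those values or from the labels. The same alternatives, extended to the list genes that passed after their values were seen, turned no direction. For clone 5 minus clone 1 no list gene could keep its call with such an array left out, since no probe set did, and the differences were then -1.48 to -1.33 for KLF4 and -1.05 to -0.96 for DSG2. The 8 list genes of V1 minus V3 lost their call with 4 to 6 of these 6 arrays left out, and with 4 of them no probe set passed.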
